A study of Mus musculus with 3 samples.

Results

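The VEGF ligand genes *Vegfa*, *Vegfb*, *Vegfc* and *Pgf*, the VEGF receptor genes *Kdr*, *Flt1* and *Flt4*, and the neuropilin genes *Nrp1* and *Nrp2* were followed across the cell types of the mouse lung. These 9 genes were taken by symbol out of 28692 genes in the count files, and each symbol matched 1 gene identifier. Single-cell RNA-Seq (scRNA-Seq) with 10x Genomics v3 3′ chemistry had been done on whole lungs of 3 wild-type C57BL/6 pups, named mice 2, 3 and 4, that were kept in room air (RA) from P1 and taken at P14, in the middle of alveolar growth. There was 1 condition and no treated or mutant group, so the comparisons here were between cell types, with the mouse as the replicate (n = 3).

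VEGF-A, the product of *Vegfa*, binds VEGF receptor 2 (KDR) on endothelial cells (ECs) and drives their growth, migration and survival. FLT1 (VEGF receptor 1) binds VEGF-A, VEGF-B and placental growth factor (PGF) tightly and largely acts as a decoy, FLT4 (VEGF receptor 3) answers VEGF-C in lymphatic and sprouting vessels, and the neuropilins are coreceptors that also bind class 3 semaphorins. In the growing lung, epithelial VEGF-A is known to shape the capillary bed of the alveolar septa.

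The 3 libraries held between 22476491 and 25192427 UMIs (unique molecular identifiers, each 1 captured mRNA molecule). Of 9644 deposited barcodes, 7642 cells were kept (200 genes or more, mitochondrial share no higher than 20%), and their median UMI count was 7119, 4853 and 6453 in mice 2, 3 and 4. The 9 genes were left out of the clustering, and 21 cell types were labelled from other marker genes, in 4 classes: 952 ECs, 1305 epithelial cells, 1538 stromal cells and 2959 immune cells. For each class, 8 of 8 class markers were highest in that class, but the classes were named from these same markers, so this is no check of the names. Another 888 cells in 6 clusters stayed unnamed, among them 140 dividing cells (*Top2a*, *Mki67*) and 460 shallow cells (median 845 UMIs) led by *Hpgd* and *Sox7*. EC subtype markers were less often highest in their own subtype, in a ranking over all cell types and not among ECs alone. This was so for 6 of 9 Car4-type markers, 3 of 9 Aplnr-type markers, 7 of 9 arterial markers, 5 of 9 venous markers and 3 of 7 lymphatic markers. The 10 leading genes of the 100-cell cluster labelled Col14a1-type held the cartilage genes *Col2a1*, *Col10a1*, *Col11a1* and *Acan* beside the fibroblast genes *Dcn*, *Lum*, *Col1a1* and *Serpinf1*, so this label stands for that mixed cluster and not for a cell type. In all, 12 barcodes were shared between libraries, as 9644 cells carried 9632 barcodes. Levels are given in CPM, the summed UMIs of a gene in a cell type of 1 mouse scaled by all UMIs of that type in that mouse, as mean ± SD over 3 mice. In such sums, fewer cells of a kind and less RNA in each of them cannot be told apart. The log2 differences below are from fits that also scale the sums against each other (TMM), so they need not equal the ratios of CPM. A 3′ library does not allow levels of 2 genes to be set against each other, so each gene was compared only with itself.

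**Figure D1:**
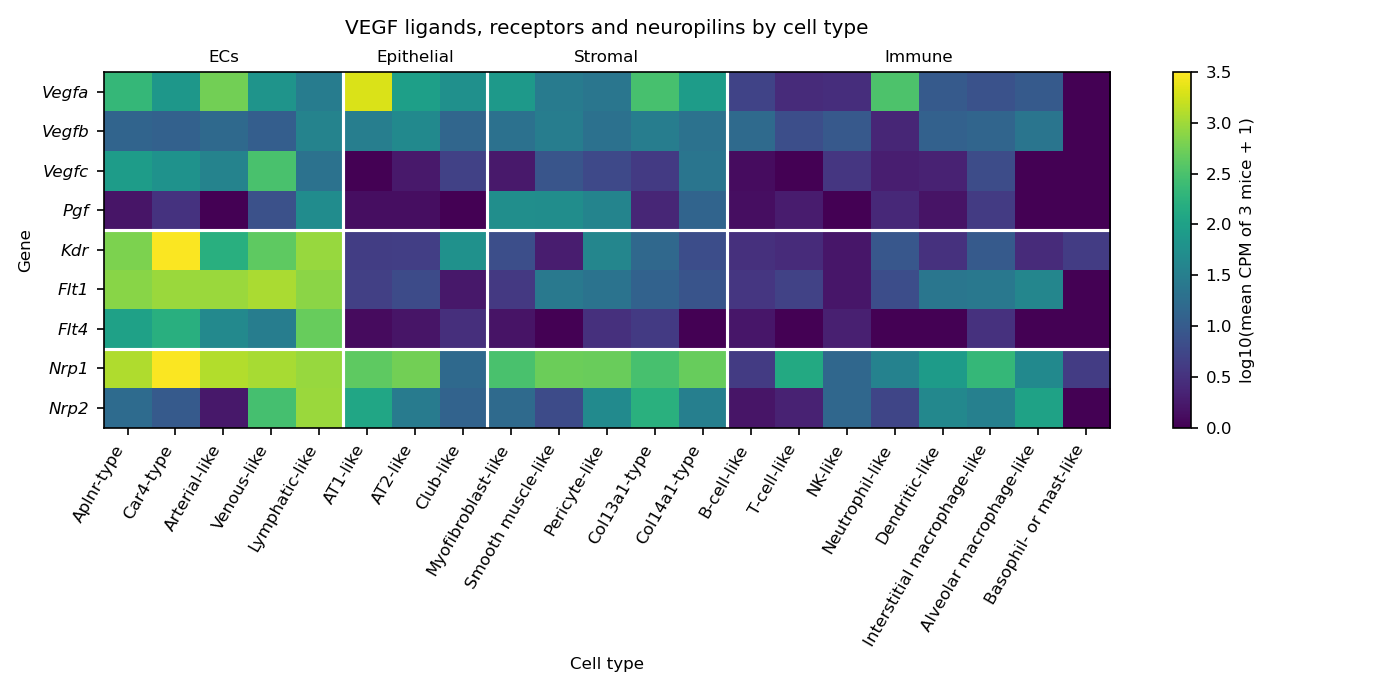
Heat map of the mean level (3 mice) of each gene in 21 labelled cell types, with color on a log10(CPM + 1) scale. Columns are grouped as ECs, epithelial, stromal and immune types and rows as ligands, receptors and neuropilins, and colors should be read along a row. *Vegfa* was highest in AT1-like cells, the 3 receptors in EC subtypes, and *Pgf* in myofibroblast-like, smooth muscle-like and pericyte-like cells and lymphatic-like ECs.

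Between classes, the receptors and neuropilins were higher in ECs than in any other named class, whereas ligands were spread over the classes. For *Nrp2* this did not hold for most EC subtypes. Aplnr-type (15.5 CPM), Car4-type (8.85 CPM) and arterial-like ECs (0.666 CPM) lay below the means of epithelial (36.1 CPM) and stromal cells (35.7 CPM). An *Nrp2* UMI was found in 19.7% of ECs and in 32.6% of the more deeply read epithelial cells. Counts were summed per class and mouse and tested with the edgeR quasi-likelihood test across all 14200 genes that passed a low-count filter, with Benjamini-Hochberg (BH) adjustment and a threshold of 0.05. ECs differed from epithelial cells in 9 of 9 genes (7 higher, 2 lower), where 66.4% of all tested genes differed. ECs differed from stromal cells in 9 of 9 (7 higher, 2 lower), against 55.8% of all genes. ECs differed from immune cells in 8 of 9, each higher, against 69.5% of all genes. Epithelial cells differed from stromal cells in 7 of 9 (5 higher, 2 lower), against 67.2% of all genes. Since whole cell classes differed in most genes, the sizes below say more than these counts. As cells were grouped by other genes of the same cells, the tests between types are no check that the types are separate.

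The share of each gene's UMIs that fell in a class gives a view of source and target that does not depend on scaling. ECs held 90.2% of *Kdr* UMIs (8481 of 9406), 90.5% of *Flt1* (8148 of 9004) and 87.6% of *Flt4* (1016 of 1160). *Vegfc* also lay mainly in ECs (83.7% of 1146 UMIs). Epithelial cells held 62.9% of 11789 *Vegfa* UMIs and 52.2% of 1712 *Vegfb* UMIs, and stromal cells held 91.9% of 815 *Pgf* UMIs. Neuropilin UMIs were mixed, with 41.2% of *Nrp1* in ECs, 33.4% in epithelial and 20.3% in stromal cells, and 32.0%, 31.0% and 23.4% of *Nrp2*. These shares also follow how many cells of each type were captured and how deeply each was read.

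**Figure D2:**
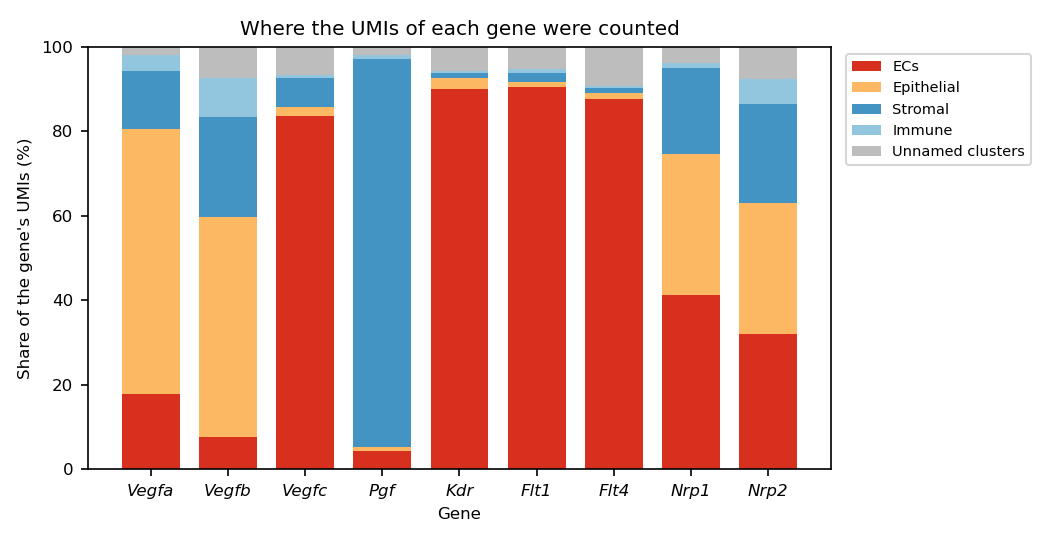
Stacked bars of the percentage of each gene's UMIs, summed over 3 mice, that were counted in ECs, epithelial, stromal and immune cells and in unnamed clusters. About 9 in 10 UMIs of the 3 receptors were in ECs (87.6% to 90.5%) and 91.9% of *Pgf* UMIs were in stromal cells.

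*Vegfa* (ENSMUSG00000023951, chr17:46016993-46032369, minus strand, GRCm38) encodes the main ligand of KDR. AT1-like cells, the flat gas-exchange epithelium, had 2255, 1724 and 2042 CPM in mice 2, 3 and 4. AT2-like cells, the surfactant-making epithelium, had 86.2, 95.9 and 101 CPM. All AT1-like values lay far above all AT2-like values. The difference was 4.14 ± 0.18 on the log2 scale (SE, edgeR adjusted p = 1.64e-10), which is 2007 ± 267 against 94.3 ± 7.5 CPM. AT1-like cells were 166 of 7642 cells and held 48.0% of all *Vegfa* UMIs, while 1043 AT2-like cells held 13.7%. They joined a cluster of 129 cells (median 6208 UMIs) and one of 37 cells (median 35994 UMIs). In the larger cluster *Vegfa* stood at 3045, 2488 and 2864 CPM and in the deeper one at 1304, 1254 and 1497 CPM. Both AT1-like clusters were above every other named type in every mouse.

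AT1-like and AT2-like cells differed in 4 of 5 tested genes (2 higher, 2 lower), where 43.5% of 9284 tested genes differed. When every cell was thinned to 1000 UMIs, an expected 72.8% ± 5.38 of AT1-like cells had a *Vegfa* UMI, against 8.82% ± 0.386 of AT2-like cells. An exact two-sided permutation test over mice gave p = 0.1, the smallest that 3 against 3 allows (BH-adjusted 0.18 over 9 genes). Without thinning the shares were 74.6% and 72.1% and overlapped. Thinning left out 30 of 166 AT1-like and 2 of 1043 AT2-like cells with fewer UMIs. B-cell-like cells, in which *Vegfa* was near 0, had a thinned share of 0.382%. The summed level of 9 AT1 markers in AT2-like cells was 3335 to 3487 CPM and in AT1-like cells 21861 to 28226 CPM. This sum holds *Cldn18*, which was also used as an epithelial class marker, so it is no clean measure of AT1 RNA in AT2-like cells. The part of AT1 RNA in the AT2-like *Vegfa* level was not tested.

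Outside the epithelium, *Vegfa* was next highest in arterial-like ECs, at 483, 632 and 600 CPM. Neutrophil-like cells had 376, 346 and 287 CPM and Col13a1-type fibroblasts 250.6, 330 and 314 CPM, and the ranges of these 2 types overlapped. Aplnr-type capillary ECs followed at 213 ± 14.8 CPM, below all of the former. AT2-like, Col14a1-type, myofibroblast-like, Car4-type, venous-like and club-like cells lay between 56.3 and 94.3 CPM, each overlapping its neighbor in the order. Among immune cells neutrophils stood alone: 380 of 439 immune *Vegfa* UMIs were theirs, and B-cell-like cells had 4.03 ± 1.17 CPM.

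In summed classes, ECs had 219 ± 21.5 CPM of *Vegfa*, below epithelial cells (319 ± 75.3, log2 difference -1.04 ± 0.17, adjusted p = 8.12e-05) and above stromal (93.6 ± 23.9) and immune cells (32.2 ± 2.10). The class values hide the types. Of the epithelial types, AT1-like cells (2007 CPM) lay above and AT2-like cells (94.3 CPM) below the mean of ECs. ECs ranged from arterial-like cells at 571 ± 78.1 CPM to venous-like cells at 64.7 ± 23.2 CPM. Against Aplnr-type ECs, *Vegfa* was higher in arterial-like ECs (1.52 ± 0.14 on the log2 scale, adjusted p = 1.45e-09) and lower in Car4-type (-1.57 ± 0.19, adjusted p = 7.26e-07) and venous-like ECs (-1.59 ± 0.20, adjusted p = 5.21e-07). These 3 comparisons share the Aplnr-type sums. The annotation gives *Vegfa* 13 transcripts, and 3′ counts do not tell its isoforms apart.

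*Vegfb* encodes a FLT1 ligand known from heart and fat (ENSMUSG00000024962, chr19:6982473-6987651, minus strand). It was spread thinly, with 44.8, 45.0 and 46.1 CPM in AT2-like cells, the highest named type. AT1-like cells (30.7 ± 4.62), smooth muscle-like cells (29.8 ± 3.83) and Col13a1-type fibroblasts (29.7 ± 3.70 CPM) came next and overlapped. The AT2-like values were above all AT1-like values (AT1-like minus AT2-like -0.89 ± 0.16 on the log2 scale, adjusted p = 0.000401). At 1000 UMIs a cell, 4.33% ± 0.153 of AT2-like cells had a *Vegfb* UMI. ECs (13.5 ± 0.589 CPM) and immune cells (12.3 ± 3.39 CPM) overlapped and did not pass the test (adjusted p = 0.781, log2 difference -0.07 ± 0.20), and both were under epithelial cells (39.9 ± 0.359 CPM) and stromal cells (23.1 ± 3.34 CPM).

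*Vegfc* (ENSMUSG00000031520, chr8:54077606-54187096, plus strand), whose product is the FLT4 ligand that drives lymphatic growth, was highest in venous-like ECs. Venous-like ECs had 356, 316 and 255 CPM. Aplnr-type ECs had 80.4, 81.2 and 91.9 CPM, so that the groups did not overlap. The difference was 1.98 ± 0.14 on the log2 scale (edgeR adjusted p = 1.99e-11), and 72.4% of 105 venous-like cells had a UMI. Car4-type ECs had 59.8 ± 18.2 CPM, below all Aplnr-type values without passing the test (adjusted p = 0.103, log2 difference -0.48 ± 0.19), although -0.61 to -0.89 passed it in 5 of the alternative settings. Arterial-like ECs had 35.9 ± 5.34 CPM, lower than Aplnr-type ECs (-1.14 ± 0.21, adjusted p = 0.000159).

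The Aplnr-type ECs were not uniform in *Vegfc*. They held a sub-cluster of 264 cells led by *Scn7a*, *Sema3c* and *Kit*, which had 134, 192 and 124 CPM, and a sub-cluster of 174 cells led by *Pcdh17*, *Gpihbp1* and *Plvap*, which had 16.6, 10.1 and 31.9 CPM. The lowest value of the former was above the highest of the latter, and no test was made between sub-clusters of the same cells. Outside ECs, the highest *Vegfc* level of a labelled cluster was in the mixed Col14a1-type cluster (31.2, 17.3 and 16.8 CPM), above Col13a1-type fibroblasts (2.89 ± 3.32 CPM, Col13a1-type minus Col14a1-type -3.06 ± 0.65, adjusted p = 0.00105, and -3.74 without mouse 2). The part of cells with cartilage genes in this level was not tested.

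*Pgf* (ENSMUSG00000004791, chr12:85166635-85177790, minus strand), which codes for a ligand of FLT1, was found mainly in myofibroblast-like, smooth muscle-like and pericyte-like cells. Myofibroblast-like cells, which lay down elastin in growing septa, had 50.5, 50.1 and 59.6 CPM. Smooth muscle-like cells had 68.4, 31.3 and 51.7 CPM and pericyte-like cells 31.6, 24.6 and 53.6 CPM, and the 3 ranges overlapped. Col13a1-type fibroblasts, by contrast, held 3 *Pgf* UMIs in 210 cells, against 481 in 804 myofibroblast-like cells. The pooled ratio was 40.6 (exact 95% counting interval 13.8 to 198), with an adjusted p of 2.15e-06 in edgeR. The fitted log2 difference was 5.10, and 4.43 without mouse 3 or 8.75 without mouse 4. The 22 UMIs of Col14a1-type cells were unevenly placed (2.08, 29.9 and 5.61 CPM), with a pooled ratio of 11.2 to the 3 UMIs of Col13a1-type cells (counting interval 3.37 to 58.5). The fitted difference (Col13a1-type minus Col14a1-type -3.45 ± 1.04, adjusted p = 0.016) went to -0.76 without mouse 3 (adjusted p = 0.742), was -7.42 without mouse 4, and missed the threshold with no filter on cells (-2.31, adjusted p = 0.0529).

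Stromal cells as a class had 42.2 ± 7.86 CPM of *Pgf* against 3.51 ± 1.96 in ECs (ECs minus stromal -3.65 ± 0.30, adjusted p = 4.91e-08). ECs were higher than epithelial (2.79 ± 0.62, adjusted p = 0.00102) and immune cells (2.49 ± 0.65, adjusted p = 0.00327), but without mouse 4 neither held, at 1.89 (adjusted p = 0.058) and 1.87 (adjusted p = 0.0674), and without mouse 2 the first was 4.33. Of 35 EC *Pgf* UMIs, 18 lay in the 23 lymphatic-like cells, at 19.0, 54.0 and 76.1 CPM. Epithelial cells were far below stromal cells (log2 -6.43 ± 0.37, adjusted p = 6.53e-10, and -7.63 without mouse 2).

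**Figure D3:**
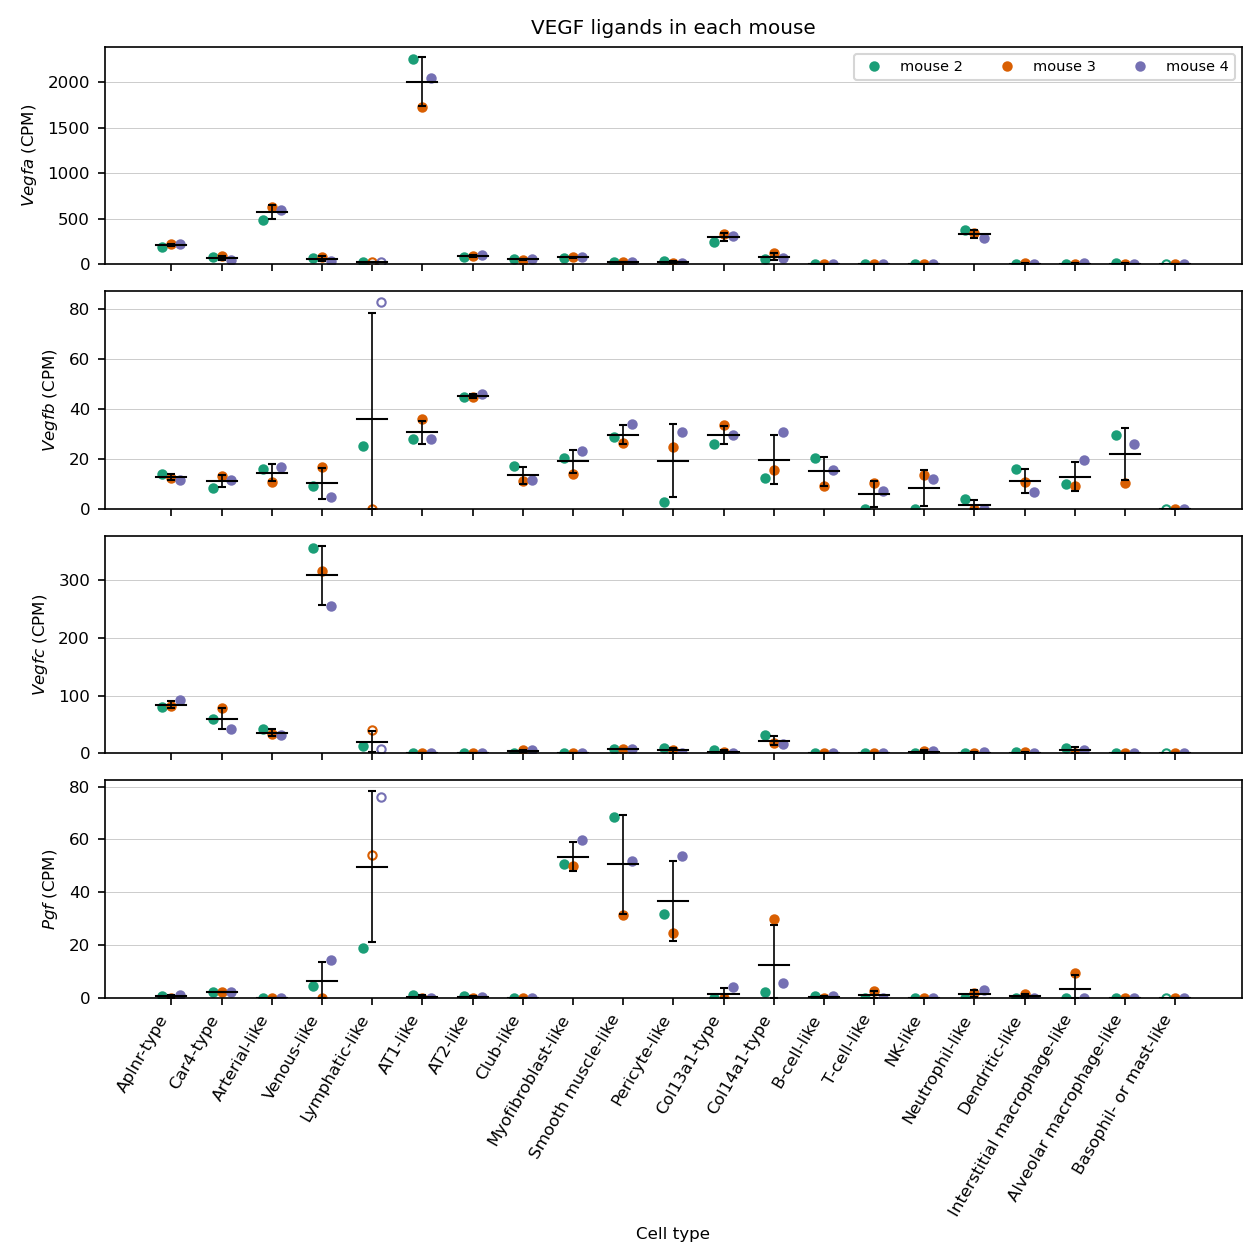
CPM of the 4 ligand genes in each mouse (colored points, open where a mouse had fewer than 10 cells of the type) in 21 cell types, with the mean (long bar) ± SD (error bar cut at 0). Each panel has its own linear axis starting at 0. AT1-like cells stand apart for *Vegfa* (1724 to 2255 CPM) and venous-like ECs for *Vegfc* (255 to 356 CPM), while *Vegfb* is low and broad.

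The promoters of the 3 receptor genes are shown because these genes share the EC restriction described next. Sequences are from RefSeq on GRCm38.p6 and run from 250 bases before to 50 bases after the annotated start on the gene's own strand. Capitals mark GGGCGG (the core of a GC box) and CCGGAA (the core of an ETS motif), each searched on both strands, so a match on the other strand stands as the reverse complement.
Kdr, chr5:75978406-75978705, minus strand: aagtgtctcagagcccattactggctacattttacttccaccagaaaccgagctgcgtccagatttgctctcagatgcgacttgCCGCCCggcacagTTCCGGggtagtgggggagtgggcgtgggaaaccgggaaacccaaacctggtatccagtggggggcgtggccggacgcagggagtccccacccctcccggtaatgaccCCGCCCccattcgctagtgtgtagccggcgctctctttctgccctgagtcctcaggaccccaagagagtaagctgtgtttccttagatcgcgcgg
Flt1, chr5:147725962-147726261, minus strand: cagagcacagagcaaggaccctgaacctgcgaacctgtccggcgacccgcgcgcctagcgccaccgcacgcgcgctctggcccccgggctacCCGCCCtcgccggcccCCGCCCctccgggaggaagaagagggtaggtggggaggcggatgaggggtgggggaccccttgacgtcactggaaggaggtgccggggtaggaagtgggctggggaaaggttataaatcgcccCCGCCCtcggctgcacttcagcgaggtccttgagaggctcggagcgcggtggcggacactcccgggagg
Flt4, chr11:49609429-49609728, plus strand: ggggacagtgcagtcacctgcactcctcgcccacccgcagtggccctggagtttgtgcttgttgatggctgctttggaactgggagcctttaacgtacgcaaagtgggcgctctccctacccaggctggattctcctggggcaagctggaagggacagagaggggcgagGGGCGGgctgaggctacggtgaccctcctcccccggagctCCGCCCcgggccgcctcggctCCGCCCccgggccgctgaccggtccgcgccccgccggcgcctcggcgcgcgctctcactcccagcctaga
GGGCGG occurred 2 times in the *Kdr* window and 3 times each in those of *Flt1* and *Flt4*, and CCGGAA 1 time in that of *Kdr*. GGGCGG also occurred in at least 1 window of each ligand and neuropilin gene, so it was not particular to the receptors. At least 1 match was found in 35.66% of 32851 promoters for GGGCGG and in 14.9% for CCGGAA. The core of a hypoxia response element (ACGTG, both strands) was searched too, with no match in these 3 windows and at least 1 in 19.62% of all promoters. The GC content was 60.67% for *Kdr*, 70.67% for *Flt1* and 70.33% for *Flt4*, above the median of 52.67% over all promoters. In the windows of the ligand and neuropilin genes it was 59.33% to 75.33%.

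*Kdr* (ENSMUSG00000062960, chr5:75932827-75978458, minus strand) encodes the main signaling receptor of VEGF-A. Car4-type ECs, capillary cells marked by *Car4*, *Ednrb* and *Apln*, had 2477, 3203 and 3254 CPM. Aplnr-type ECs, the other capillary type, had 601, 716 and 626 CPM. Every Car4-type value exceeded every Aplnr-type value, by 2.22 ± 0.15 on the log2 scale (edgeR adjusted p = 1.37e-11). In the alternative fits the difference stayed between 1.90 and 2.30 and passed the test. Car4-type cells were 168 of 952 ECs and held 42.9% of all *Kdr* UMIs. *Kdr* was also the second gene by fold in the 95-cell Car4-type sub-cluster, although it was not used to form it. That fold was over all other cells, non-EC types included, and not over other ECs alone.

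The Car4-type ECs joined that sub-cluster, with a median of 9148 UMIs, to 73 cells with a median of 865 UMIs. *Kdr* stood at 2647, 3175 and 3583 CPM in the deep cells and at 1717, 4284 and 1711 CPM in the shallow cells (36, 12 and 25 cells per mouse), each above all Aplnr-type values. The summed level of 9 AT1 markers was 3144 to 3467 CPM in Car4-type and 749 to 867 CPM in Aplnr-type ECs. This sum holds *Emp2*, which was also used as a Car4-type marker, so it is no clean measure of AT1 RNA in these cells. The part of AT1 RNA in these differences was not tested, and *Kdr* in AT1-like cells themselves was 3.30 ± 3.09 CPM. With cells thinned to 1000 UMIs, *Kdr* was present in an expected 91.3% ± 2.60 of Car4-type and 43.9% ± 2.73 of Aplnr-type ECs (exact two-sided permutation p = 0.1, the smallest possible, BH-adjusted 0.18). Thinning left out 47 Car4-type cells and no Aplnr-type cell. Without it the shares were 90.2% and 95.8%, the reverse order, at median depths of 6259.5 and 7964.5 UMIs. In B-cell-like cells, which should lack the receptors, the thinned share was 0.107% and the share without thinning 0.561% (exact 95% interval 0.269% to 1.03%) at a median of 3960 UMIs.

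Arterial-like ECs had the least *Kdr* among ECs, at 148, 218 and 117 CPM, all below the Aplnr-type values (-1.91 ± 0.16 on the log2 scale, adjusted p = 4.38e-10). Within them a sub-cluster of 97 cells led by *Cxcl12*, *Gja5* and *Sema3g* had 226, 419 and 210 CPM, and one of 59 cells led by *Cytl1*, *Vwf* and *Lyve1* had 25.6, 44.0 and 32.1 CPM. Venous-like ECs had 362, 437 and 467 CPM, below all Aplnr-type values (-0.50 ± 0.15, adjusted p = 0.0149), a call that was lost without mouse 2 (-0.45, adjusted p = 0.0619) or mouse 3 (-0.47, adjusted p = 0.0578) and went to -0.20 (adjusted p = 0.348) when cells were clustered after log-normalization. The 23 lymphatic-like ECs had 931, 904 and 927 CPM from 11, 7 and 5 cells.

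*Flt1* (ENSMUSG00000029648, chr5:147561604-147726011, minus strand), the decoy-like receptor, varied far less over the EC subtypes. Venous-like ECs had 1135, 1207 and 1064 CPM, arterial-like ECs 901, 1017 and 903, Car4-type ECs 850, 1037 and 968, and Aplnr-type ECs 686, 817 and 789. Venous-like values were above all others of these 4 types, whereas arterial-like and Car4-type values overlapped. Against Aplnr-type ECs, venous-like ECs were higher by 0.69 ± 0.11 on the log2 scale (adjusted p = 2.03e-05) and arterial-like ECs by 0.40 ± 0.11 (adjusted p = 0.00691, and 0.056 without mouse 2). Car4-type ECs were higher by 0.34 ± 0.11 (adjusted p = 0.0328), which no longer passed without mouse 2 (0.0932), mouse 3 (0.159) or mouse 4 (0.135) and was 0.19 (0.341) after log-normalization. The deep Car4-type cells had 917, 1044 and 1022 CPM. The shallow ones had 553, 787 and 716 CPM, which overlapped with Aplnr-type values. Lymphatic-like ECs had 722, 1133 and 443 CPM from 11, 7 and 5 cells, a wider range than in any of the other 4 subtypes. The 97-cell arterial sub-cluster had 1082, 1390 and 1079 CPM and the 59-cell one 616, 692 and 742 CPM, so the sub-cluster with less *Kdr* also had less *Flt1*.

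*Flt4* (ENSMUSG00000020357, chr11:49609263-49652739, plus strand), the receptor of VEGF-C, was found in blood as well as in lymphatic ECs. Car4-type ECs had 127, 168 and 182 CPM, Aplnr-type ECs 103, 115 and 83.1, arterial-like ECs 39.9, 59.9 and 31.7, and venous-like ECs 20.4, 31.1 and 35.8. The arterial- and venous-like ranges overlapped, and the others did not. Within Car4-type ECs, the deep cells had 134, 170 and 195 CPM. The shallow ones had 92.2, 87.4 and 119 CPM from 8, 1 and 9 UMIs, which overlapped with Aplnr-type values. Aplnr-type ECs were above arterial-like (log2 -1.09 ± 0.21, adjusted p = 0.000251) and venous-like ECs (-1.65 ± 0.25, adjusted p = 8.87e-06), and below Car4-type ECs (0.70 ± 0.16, adjusted p = 0.00312, and 0.47 with an adjusted p of 0.132 without mouse 4). When cells were clustered after log-normalization, venous-like ECs had 159 CPM and the venous-like difference turned to 0.73 (adjusted p = 0.187). Neither of the other calls held under that setting, at -1.02 (adjusted p = 0.140) for arterial-like and 0.47 (adjusted p = 0.497) for Car4-type ECs. Lymphatic-like ECs had 266, 94.5 and 1107 CPM from 11, 7 and 5 cells, and were not tested because 2 mice had fewer than 10 cells. *Flt4* and *Nrp2* were among the 10 leading genes of this small cluster by fold over all other cells, beside *Ccl21a*, *Mmrn1* and *Prox1*.

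*Nrp1* (ENSMUSG00000025810, chr8:128358604-128503363, plus strand) encodes the coreceptor that binds VEGF-A beside KDR. Like *Kdr*, it was highest in Car4-type ECs, at 2652, 3395 and 2946 CPM. Aplnr-type ECs had 1137, 1260 and 1236 CPM, all lower (1.33 ± 0.11 on the log2 scale, adjusted p = 6.08e-10). Arterial-like (1236 ± 50.7 CPM, with 1560, 1721 and 1648 in the 97-cell and 759, 897 and 753 in the 59-cell sub-cluster) and venous-like ECs (1098 ± 132 CPM) overlapped with Aplnr-type ECs and did not pass the test (log2 0.13 ± 0.11, adjusted p = 0.446, and -0.02 ± 0.11, adjusted p = 0.913). At 1000 UMIs a cell, 90.0% ± 6.09 of Car4-type and 67.7% ± 1.81 of Aplnr-type ECs had a UMI (exact permutation p = 0.1).

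*Nrp1* was not limited to ECs. AT2-like cells had 555, 563 and 597 CPM and AT1-like cells 437, 366 and 494 CPM, the former higher in every mouse (AT1-like minus AT2-like -0.67 ± 0.14, adjusted p = 0.00154). Smooth muscle-like (513 ± 122), pericyte-like (500 ± 147) and Col14a1-type cells (488 ± 137) overlapped with AT2-like cells. Among immune cells, interstitial macrophage-like cells had 168, 252 and 228 CPM and T-cell-like cells 115, 145 and 136 CPM, against 3.09 ± 1.47 CPM in B-cell-like cells. ECs were above epithelial cells as a class by 1.06 ± 0.12 on the log2 scale (adjusted p = 1.89e-06), a smaller gap than for the 3 receptors.

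*Nrp2* (ENSMUSG00000025969, chr1:62703285-62818695, plus strand), the coreceptor tied to VEGF-C, FLT4 and venous or lymphatic identity, was highest in other EC subtypes than *Nrp1*. Lymphatic-like ECs had 659, 783 and 1383 CPM and venous-like ECs 331, 287 and 250 CPM. Aplnr-type ECs had 12.2, 13.4 and 20.9 CPM, far below all venous-like values (4.29 ± 0.19 on the log2 scale, adjusted p = 1.59e-15). In 156 arterial-like ECs 1 UMI was found, against 72 in 438 Aplnr-type ECs (pooled ratio 24.0, exact 95% counting interval 4.18 to 963, edgeR adjusted p = 8.9e-05, fitted log2 -4.18, and -6.62 without mouse 2 or -3.32 without mouse 4). Car4-type ECs held 12 UMIs in 168 cells (8.85 ± 2.32 CPM), with an adjusted p of 0.216 against Aplnr-type ECs.

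Outside ECs, *Nrp2* was highest in Col13a1-type fibroblasts (146, 162 and 183 CPM), AT1-like cells (107, 120 and 122 CPM) and alveolar macrophage-like cells (111, 97.2 and 104 CPM). AT2-like cells had 25.4, 27.7 and 28.5 CPM, below all AT1-like values (1.82 ± 0.12 on the log2 scale, adjusted p = 1.67e-08), so *Nrp1* and *Nrp2* differed between AT1-like and AT2-like cells in opposite directions. A gene on the opposite strand, *Gm29083*, lies within an intron of *Nrp2* and was counted apart, and the sources used here do not state whether counting used strand.

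**Figure D4:**
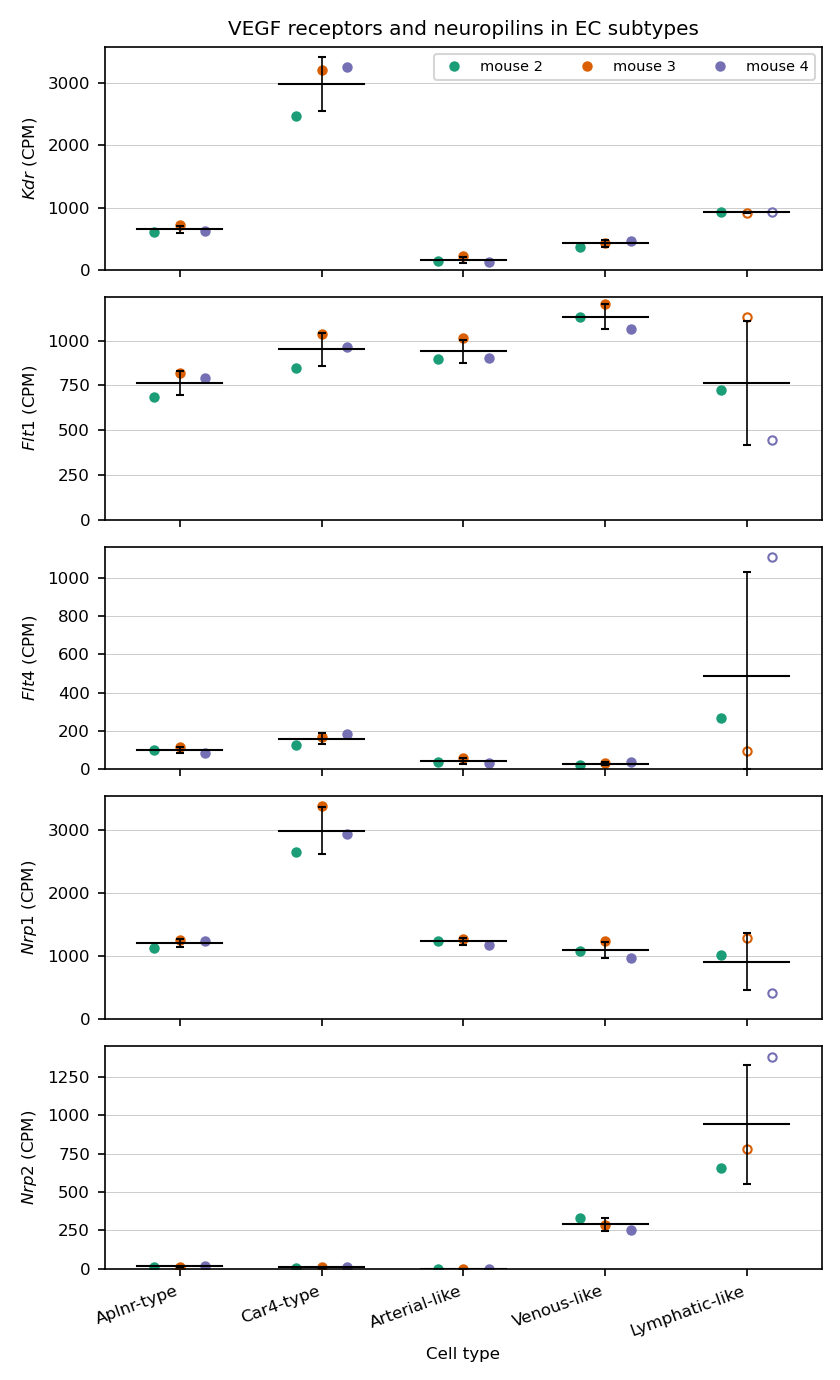
CPM of the 3 receptor and 2 neuropilin genes in each mouse (colored points, open where a mouse had fewer than 10 cells) in 5 EC subtypes, with the mean (long bar) ± SD (error bar cut at 0) on linear axes from 0. *Kdr* and *Nrp1* peak in Car4-type ECs (2978 and 2998 CPM), *Nrp2* in lymphatic- and venous-like ECs (942 and 289 CPM), and the mean of *Flt1* lies between 764 and 1135 CPM in each subtype, with a wide spread in lymphatic-like ECs (766 ± 347 CPM).

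The counts of called genes against Aplnr-type ECs were as follows. Car4-type ECs differed in 5 of 7 tested genes (4 higher, 1 lower), where 16.6% of 7859 tested genes differed. Arterial-like ECs differed in 6 of 7 (2 higher, 4 lower), against 24.6% of all genes, and venous-like ECs in 6 of 7 (3 higher, 3 lower), against 22.9%. *Vegfb* and *Pgf* were too low in ECs to be tested. Without mouse 4, 3 of the 5 Car4-type calls remained, those of *Kdr*, *Nrp1* and *Vegfa*.

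**Figure D5:**
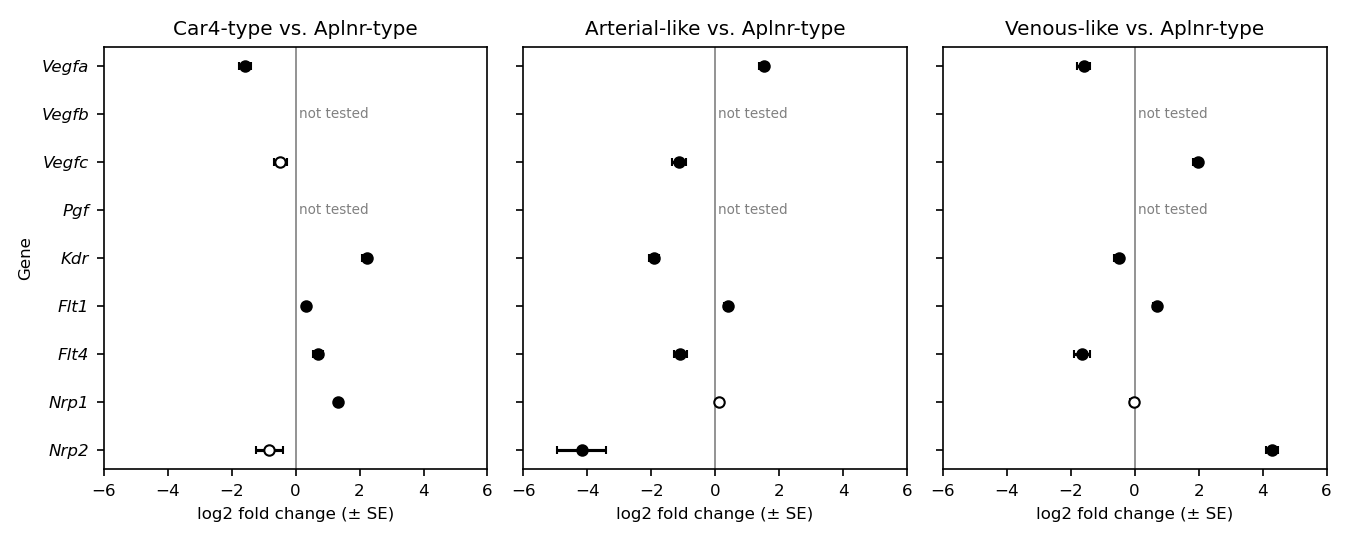
Log2 difference ± SE from the edgeR fit for each gene in Car4-type, arterial-like and venous-like ECs against Aplnr-type ECs (filled circles, adjusted p under 0.05). Values to the right of 0 are higher than in Aplnr-type ECs. *Kdr* stood at 2.22 in Car4-type and -1.91 in arterial-like ECs, and *Nrp2* at 4.29 in venous-like ECs. The 3 panels share the Aplnr-type sums, and the arterial-like *Nrp2* point rests on 1 UMI.

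Receptor UMIs outside ECs were few, and in several types they lay mostly in cells that also carried EC markers. Of 24 pericyte-like *Kdr* UMIs, 23 were in 2 cells with at least 10 UMIs of the 8 EC class markers, and of 37 Col13a1-type *Kdr* UMIs, 34 were in 4 such cells. In AT2-like cells 53 of 65 *Kdr* UMIs and 74 of 97 *Flt1* UMIs were in 4 and 5 such cells. The pericyte-like *Kdr* level was called higher than that of smooth muscle-like cells (2.87, 73.8 and 42.1 against 0.919 ± 0.797 CPM, log2 4.82 ± 1.26, adjusted p = 0.00475, and 5.87 without mouse 2). The pooled ratio was 32.2 (counting interval 11.1 to 128). This interval takes UMIs as independent, so it does not cover that 23 of the 24 were in 2 cells. *Kdr* did not reach the low-count filter without mouse 3, and with a stricter filter on cells no pericyte-like *Kdr* UMI was left. Dividing cells held 478 *Kdr* UMIs, 474 of them in 28 cells with at least 10 EC marker UMIs.

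A few types carried receptor UMIs mostly in cells with fewer than 10 EC marker UMIs. In club-like cells, the secretory cells of the airway, 33 of 96 cells had 156 *Kdr* UMIs (59.8, 35.4 and 80.1 CPM), and 0 of the 33 had 10 EC marker UMIs. The summed level of the 8 EC markers in club-like cells was 10.1 to 74.8 CPM, against 8761 to 15626 CPM in the 4 larger EC subtypes. The cluster had a median of 788 UMIs, and 8 of the 33 cells and 16 of all 96 were marked as doublets. Smooth muscle-like cells had 102 *Flt1* UMIs in 55 of 290 cells (20.1, 24.9 and 29.0 CPM), of which 3 UMIs were in 1 cell with at least 10 EC marker UMIs. Alveolar macrophage-like cells had 20 *Flt1* UMIs in 15 of 72 cells and dendritic-like cells 38 in 13 of 182, and 0 of these positive cells had 10 EC marker UMIs. At 1000 UMIs the expected *Kdr* share was 4.26% ± 1.48 in club-like cells, above 0.107% in B-cell-like cells. As the club-like median was 788 UMIs, this share covers only the deeper cells of that cluster. The expected *Flt1* share was 2.32% ± 0.399 in smooth muscle-like and 4.40% ± 0.867 in alveolar macrophage-like cells, above 0.197% in B-cell-like cells.

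The difference in *Kdr* between epithelial and stromal cells depended on the setting. Epithelial cells had 9.60 ± 5.75 and stromal cells 7.25 ± 2.81 CPM, overlapping, with a called difference of 0.88 ± 0.35 (adjusted p = 0.0395) that fell to 0.03 without mouse 4 (adjusted p = 0.958), missed the threshold without mouse 2 (adjusted p = 0.118), and turned to -0.58 without clusters of unlike depth, club-like cells among them. *Nrp2* was called higher in epithelial cells too (0.41 ± 0.15, adjusted p = 0.0259), with 36.1 ± 4.64 against 35.7 ± 8.23 CPM, but the difference was 0.03 without TMM scaling (adjusted p = 0.870). It was also lost without mouse 2 (0.34, adjusted p = 0.155) or mouse 4 (0.22, adjusted p = 0.331). Against epithelial cells, ECs were higher by 5.98 ± 0.27 for *Kdr*, 6.94 ± 0.34 for *Flt1* and 6.59 ± 0.32 for *Flt4* on the log2 scale (adjusted p of 8.46e-11 or less), and by 6.57, 8.33 and 7.76 without mouse 4. Against stromal cells the differences were 6.85, 6.22 and 6.87 (*Flt4* 7.85 without mouse 3), and against immune cells 8.11, 6.67 and 7.54 (*Flt4* 8.19 without mouse 2).

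Among stromal types, *Vegfa* and *Nrp2* were higher in Col13a1-type fibroblasts than in myofibroblast-like or Col14a1-type cells. Myofibroblast-like cells differed from Col13a1-type fibroblasts in 5 of 8 tested genes (1 higher, 4 lower), where 36.5% of 9722 tested genes differed. *Vegfa* (76.5 ± 9.89 against 298 ± 42.1 CPM, -2.11 ± 0.16, adjusted p = 9.9e-10) and *Nrp2* (15.1 ± 1.74 against 164 ± 18.5 CPM, -3.56 ± 0.23, adjusted p = 4.42e-11) were lower in myofibroblast-like cells. *Vegfb* was lower by a narrow margin (-0.75, adjusted p = 0.0442), which was lost without mouse 3 (-0.49, adjusted p = 0.342) or mouse 4 (-0.93, adjusted p = 0.0557) and without TMM scaling (-0.62, adjusted p = 0.0933). The *Flt1* call (-2.32, adjusted p = 0.0167) rested on mouse 3, in which Col13a1-type cells had 31.3 CPM against 3.25 and 0 CPM in mice 2 and 4. Without mouse 3 it was 0.84 (adjusted p = 0.689), and without mouse 2 it was -3.50. Of 31 Col13a1-type *Flt1* UMIs over all mice, 30 were in 4 cells with at least 10 EC marker UMIs. Within myofibroblast-like cells, a cluster of 354 cells led by *Pdgfra*, *Agt* and *P2ry14* had 107, 120 and 106 CPM of *Vegfa* and one of 450 cells led by *Aspn* and *Hhip* 39.5, 46.5 and 49.4 CPM.

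Col13a1-type fibroblasts differed from the mixed Col14a1-type cluster in 5 of 8 genes (2 higher, 3 lower), against 26.5% of all genes. *Vegfa* (298 against 83.8 ± 38.5 CPM, 1.69 ± 0.20, adjusted p = 1.05e-06) and *Nrp2* (164 against 31.9 ± 25.0 CPM, 2.10 ± 0.28, adjusted p = 5.08e-06, and 2.91 without mouse 3) were higher, and *Nrp1* was lower (301 ± 21 against 488 ± 137 CPM, -0.79 ± 0.21, adjusted p = 0.00806), a call lost without mouse 2 (-0.49, adjusted p = 0.0662) or mouse 4 (-0.71, adjusted p = 0.106). Pericyte-like and smooth muscle-like cells differed in 2 of 8 genes, both higher, against 32.5% of all genes, and *Nrp2* was the firmer of them (46.7 ± 10.3 against 5.22 ± 3.38 CPM, 3.08 ± 0.51, adjusted p = 6.11e-05, and 3.74 without mouse 3). *Vegfa*, *Vegfb*, *Vegfc*, *Pgf*, *Flt1* and *Nrp1* overlapped between these 2 types and did not pass.

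*Figf*, the symbol in these files for *Vegfd*, which encodes a further ligand of FLT4, was not among the 9 genes but completes the ligands. Col13a1-type fibroblasts had 602, 603 and 489 CPM, Col14a1-type cells 247, 171 and 258 CPM, smooth muscle-like cells 67.7, 124 and 93.5 CPM and myofibroblast-like cells 2.31 ± 1.24 CPM. The order of these 4 was the same in each mouse, and stromal cells held 92.5% of 2168 UMIs. Unlike *Vegfc*, which lay in ECs, *Figf* reached 32.0 ± 5.13 CPM in venous-like ECs and 1.48 ± 0.391 CPM in Aplnr-type ECs.

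A list of 87 other VEGF pathway genes gave the wider setting. It holds the EC class marker *Cdh5* and the EC subtype markers *Ptprb*, *Efnb2*, *Ephb4* and *Apln*. These helped to label the cells, so their differences between the labelled cells are no separate result, and they are part of the counts below. Of 84 tested, 51 were higher and 18 lower in ECs than in epithelial cells (82.1% called, against 66.4% of all genes, and median log2 difference 1.21, against 0.04 over all genes). The largest differences upward were of *Ptprb* (7.72), *Sema3g* (7.65), *Clec14a* (7.59) and *Nos3* (7.31), genes of the vessel wall. Downward they were of the class 3 semaphorin genes *Sema3e* (-8.29) and *Sema3a* (-5.08), of the lipid kinase gene *Sphk1* (-4.51) and of *Src* (-3.74). Of 17 tested genes known to rise after VEGF in ECs, 17 were higher in ECs than in epithelial cells, where 4781 of all 14200 genes were higher. Against stromal cells 9 were higher and 4 lower (3501 and 4426 of all genes), and against immune cells 12 were higher and 3 lower (4871 and 4991 of all genes).

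ECs and stromal cells differed in 40 genes upward and 27 downward (79.8% of those tested, against 55.8% of all genes, median 0.08, against -0.06). Upward were *Ptprb* (7.80), *Sema3g* (7.25), the EC class marker *Cdh5* (7.17) and *Esm1*, which had 27.9 ± 0.534 CPM in ECs and 0 UMIs in stromal cells. Downward were *Adamts2* (-6.34), *Adamts14* (2 against 126 UMIs), *Shc2* (-4.80) and *Figf* (-4.04). ECs and immune cells differed in 52 upward and 25 downward (91.7%, against 69.5% of all genes, median 1.08, against -0.01), led by *Ptprb* (8.69), *Clec14a* (8.57), *Ephb4* (8.52) and *Nos3* (8.03) and by the lymphocyte signaling genes *Prkcb* (-6.87) and *Sh2d2a* (2 against 305 UMIs) with *Adamts14* (2 against 75 UMIs) and *Plcg2* (-3.42). Epithelial and stromal cells differed in 20 upward and 40 downward (71.4%, against 67.2% of all genes, median -0.28, against -0.07). Upward were *Sema3e* (5.76), *Pdgfb* (4.81), *Sema3a* (4.09) and *Esm1* (129 against 0 UMIs), and downward *Adamts2* (-7.09), *Shc2* (-6.42), *Angpt2* (-5.94) and *Adamts14* (0 against 126 UMIs).

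In Car4-type against Aplnr-type ECs, 14 of 66 tested pathway genes were higher and 17 lower (47.0% called, against 16.6% of all genes, median 0.01, against -0.01 over all genes). *Apln*, which encodes the ligand of the apelin receptor and served as a Car4-type marker, was higher (489 ± 126 against 30.6 ± 4.49 CPM, log2 3.99), as were *Plaur* (2.27), *Hspb1* (1.53) and *Nid2* (1.35). *Esm1* (2 against 140 UMIs), *Cxcr4* (-3.51), *Pcsk5* (-1.94) and *Sema3g* (-1.64) were lower. Of 14 tested genes known to rise after VEGF in ECs, 4 were higher, the marker *Apln* among them, and 5 lower (673 and 629 of all 7859 genes). VEGF signaling itself was not tested.

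Arterial-like ECs had 16 pathway genes higher and 17 lower than Aplnr-type ECs (50% called, against 24.6% of all genes, median -0.01, against 0.01). *Plcg2* (3.25), *Cd63* (3.21), *Plxna4* (2.60) and *Hspb1* (2.43) were higher. *Sema3c*, which encodes a neuropilin ligand, was lower (41.8 ± 16.0 against 2200 ± 128 CPM, -5.63), as were *Nid2* (3 against 77 UMIs), *Plxna1* (-2.88) and *Apln* (-2.81). Venous-like ECs had 11 higher and 20 lower (47.0%, against 22.9%, median -0.06, against -0.005), with *Figf* (4.34), *Cd63* (3.02), *Plxna4* (1.93) and *Nr4a1* (1.56) higher and *Cxcr4* (3 against 909 UMIs), *Sema3g* (-4.12), *Dll4* (-3.90) and *Esm1* (0 against 140 UMIs) lower.

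AT1-like cells had 22 of 58 tested pathway genes higher and 13 lower than AT2-like cells (60.3% called, against 43.5% of all genes, median 0.06, against -0.05). Beside *Vegfa*, they carried the class 3 semaphorin genes *Sema3e* (863 ± 129 against 8.25 ± 3.38 CPM, log2 6.40) and *Sema3a* (384 ± 75.5 against 5.89 ± 2.45 CPM, 5.70), and *Sphk1* (5.38) and *Itgb3* (3.69). *Adamts1* (-2.37), *Nr4a1* (-2.0), *Dusp6* (-1.48) and *Trp53i11* (-1.11) were lower. *Sema3e* was also among the 10 leading genes of both AT1-like clusters.

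Among stromal types, myofibroblast-like cells had 16 of 68 tested pathway genes higher and 24 lower than Col13a1-type fibroblasts (58.8% called, against 36.5% of all genes, median -0.12, against 0.02), led by *Plxna4* (6.10), *Unc5b* (5.06), *Sema3c* (3.71) and *Efnb2* (3.56) and by *Figf* (-7.91), the VEGF-C processing gene *Ccbe1* (-5.47), *Trp53i11* (-3.61) and *Clec14a* (-2.75). Col13a1-type fibroblasts had 15 higher and 18 lower than Col14a1-type (48.5%, against 26.5%, median 0.04, against -0.02), with *Trp53i11* (2.47), *Rcan1* (2.30), *Spry4* (1.98) and *Adamts1* (1.91) higher and *Unc5b* (-3.67), *Sema3b* (-3.13), *Sema3d* (-2.46) and *Shc2* (-2.43) lower. Pericyte-like cells had 25 higher and 16 lower than smooth muscle-like cells (60.3%, against 32.5%, median 0.20, against -0.06). *Cxcr4* (520 ± 78.2 against 2.11 ± 1.13 CPM, 7.73) and *Spry4* (3.35) were higher, as were the EC marker *Cdh5* (4.18) and *Clec14a* (3.56), and summed EC markers were 796 to 1151 CPM in pericyte-like and 67.3 to 89.9 CPM in smooth muscle-like cells. *Figf* (387 UMIs), *Plxna2* (184), *Sema3d* (103) and *Adm* (37) were found in smooth muscle-like cells and had 0 UMIs in pericyte-like cells.

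The genes whose levels went most alike with each of the 9 were found by Pearson correlation of log2(CPM + 10) over 60 sums of 21 types in 3 mice, out of 14473 genes. The sums share libraries, and the values are a description. *Kdr* went with *Ecscr* (r = 0.95), *Pcdh12* (0.95) and *Flt4* (0.94), *Flt1* with *Ccm2l* (0.96), *Adcy4* (0.96) and *Parvb* (0.95), and *Flt4* with *Bcl6b* (0.97), *Robo4* (0.96) and *Emcn* (0.95). *Vegfc* went with *Plvap* (0.91), *Tmem252* (0.91) and *Ackr3* (0.91) and *Pgf* with *Mark1* (0.91), *Des* (0.90) and *Adamts4* (0.90). Of these genes, *Emcn*, *Plvap* and *Des* were also markers used to label the cells, so their likeness is no separate result. *Nrp1* went with *Phactr2* (0.89), *Ptprg* (0.87) and *Dlc1* (0.86). The likeness was weaker for *Vegfa* (*Ndst1* 0.81, *Mpp5* 0.77, *Btg3* 0.74), *Vegfb* (*Poldip2* 0.75, *Hmgn1* 0.74, *Yae1d1* 0.74) and *Nrp2* (*Wipf3* 0.64, *Tspan5* 0.64, *Dnm3* 0.61).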

How the data were processed

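Raw UMI counts per gene and cell of 3 libraries were used as deposited. Per the labels and the methods of the study, the authors made these counts from 10x v3 3′ libraries of whole lung with Cell Ranger 3.0.2 on mm10, each library apart. Annotation version and use of strand in counting are not given in the sources used here. The labels and the methods differ in the number of cells loaded. The series text counts 5677 cells, beside 9644 deposited and 7642 kept here, and the sources used here state no cell filter. The 9 genes and all lists were chosen with earlier results of these data known.

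Cells with 200 genes or more and a mitochondrial share up to 20% were clustered with Seurat 5.3.0 (SCTransform 0.4.2, 3000 variable genes without the 9 members, 30 components, 20 for ECs, resolution 0.8) in R 4.3.3 and named from marker lists. A simulation-based caller marked 156 doublets, which were kept. Counts were summed per mouse and type (at least 10 cells) and tested with the edgeR 4.0.16 quasi-likelihood test (TMM, filterByExpr, BH adjustment over all genes tested, threshold 0.05). Mice were taken as separate animals from their labels. No library was a copy of another (ratio of chi-square to degrees of freedom 9.96 to 42.3 between them). Sums of 1 mouse share that animal, so they are paired by it, and their deviations from group means correlated at -0.111 to 0.220 over 18 pairs (7330 genes). Counts were simulated for ECs minus epithelial (14093 genes tested), Car4-type minus Aplnr-type (7915 genes) and AT1-like minus AT2-like (9314 genes). Of 200 genes changed by 2 on the log2 scale, 99.5%, 99% and 98% were recovered. The changed genes were drawn only from genes with higher counts, and all genes were given the same spread. Every other gene was given the same mean in both compared groups. These rates therefore do not cover genes with few UMIs or a wide spread between mice. Nor do they cover smaller changes or comparisons in which many genes differ. Expected shares of cells with a UMI were computed with each cell thinned to 1000 UMIs. Intervals are exact 95% and cover counting error only.

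The 9 genes were tested in every comparison in which they passed the low-count filter. Values are given for most of these tests but not for all. Of 88 listed pathway symbols (87 genes), the 4 with the largest difference past the threshold in each direction were named, and for each of the 9 genes the 3 with the highest correlation. Positions are from GENCODE on GRCm38 (the build also called mm10) and promoters from RefSeq, where all 9 genes matched. Alternatives were DESeq2 1.42.0, its size factors, no TMM, no low-count filter, the mouse as a block, each mouse left out, other cell filters, doublets removed, other clusterings, a class from each cell's own markers, a mean over cells, other thinning, and clusters of unlike depth left out. The level of 1 gene in 1 unnamed cluster is not reported here.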

Additional observations from a re-analysis of the deposited data

How the results depend on the processing

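Of 86 tested differences of the 9 genes, 66 passed the threshold, where 16.6% to 69.5% of all tested genes passed, depending on the comparison. Of the 66, 52 did so in every alternative run in which the gene was tested. The like share over all genes was not computed, so these counts do not set the 9 genes apart. Runs in which a gene missed the low-count filter were not counted, as for *Kdr* in pericyte-like minus smooth muscle-like cells without mouse 3. Classes from each cell's own markers were run only for the comparisons between classes. With the mouse as a replicate block the counts of calls were the same, such as 5 for Car4-type minus Aplnr-type ECs, and no call changed. Leaving out mice gave 3 to 4 calls for Car4-type minus Aplnr-type, 3 to 6 for myofibroblast-like minus Col13a1-type and 1 to 2 for pericyte-like minus smooth muscle-like cells, where the stricter cell filter (500 genes, 10% mitochondrial) also left 1. Among called differences, direction turned for *Kdr* in epithelial minus stromal cells (-0.58 without clusters of unlike depth, an alternative chosen after seeing the data, and -0.59 with classes from each cell's own markers), *Flt4* in venous-like minus Aplnr-type ECs (0.73 with log-normalization) and *Flt1* in myofibroblast-like minus Col13a1-type cells (-3.50 to 0.84 over left-out mice). The cause was not tested.

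Differences that had not passed also turned. *Flt4* in epithelial minus stromal cells was -0.0814 with no TMM, -0.61 with the stricter filter, -0.00735 without doublets, -0.33 with log-normalization, -0.0181 without clusters of unlike depth, -1.67 with own-marker classes and -1.44 to 1.47 over left-out mice. *Vegfb* in ECs minus immune cells was 0.18 with no TMM, 0.0163 with no cell filter and -0.36 to 0.15 over left-out mice. *Kdr* in AT1-like minus AT2-like cells was 0.0939 with no TMM, 0.44 with the stricter filter, 2.19 without doublets, 1.86 at resolution 1.2 and -0.40 to 0.15 over left-out mice. *Nrp2* in Car4-type minus Aplnr-type ECs was 0.17 with the stricter filter. *Nrp1* was 0.0658 with no TMM in myofibroblast-like minus Col13a1-type cells, -0.11 to 0.0758 over left-out mice in venous-like minus Aplnr-type ECs, and 0.12 with log-normalization and -0.29 to 0.0171 over left-out mice in pericyte-like minus smooth muscle-like cells. *Flt1* over left-out mice was -2.51 to 1.55 in Col13a1-type minus Col14a1-type and -1.07 to 0.16 in pericyte-like minus smooth muscle-like cells.

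Without TMM the median over all genes shifted by 0.49 for ECs minus epithelial, 0.11 for ECs minus stromal, 0.25 for ECs minus immune, -0.38 for epithelial minus stromal, -0.11 for venous-like, 0.28 for AT1-like, 0.13 for myofibroblast-like and 0.13 for pericyte-like cells. The share of calls that were higher went from 50.7% to 70.8%, 49.4% to 60.9% (ECs minus immune), 46.7% to 28.3% (epithelial minus stromal), 53% to 42% (arterial-like), 55.0% to 40.7% (venous-like), 47.3% to 70.7% (AT1-like) and 47.3% to 59.3% (myofibroblast-like). Depth limits *Pgf*, *Vegfb* and *Flt4* outside their main types, and with 3 mice the exact permutation test of a share cannot go below p = 0.1.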
